A study of Mus musculus with 14 samples.

Results

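The olfactory receptor genes on the array were the probes of the deposited value table with a single gene symbol in the platform annotation that starts with Olfr and a digit, or with Or, a digit and a letter. This rule found 139 probes, for 136 of the 15094 genes with such a probe, among the 21582 probes of the table. All 139 matched a RefSeq gene of the same symbol by gene number (assembly GRCm38.p6), with 136 probes for protein-coding genes and 3 for pseudogenes. The genes lay on 13 chromosomes, and 41 probes stood for genes on chromosome 9, 30 for genes on chromosome 7 and 22 for genes on chromosome 11. By the MOR family numbers among the RefSeq synonyms, 16 probes belonged to class I, the families up to MOR42, and 120 to class II. The other 3 had no family number. The rule goes by gene name and not by measured values, though it was set with earlier results of these data known.

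The samples were total RNA of mouse fetuses of the strain C57Bl6, hybridised to 14 arrays of 2 colours. For the alcohol-fed group (n = 7) ethanol was given to the mothers over gestational days 15 to 18, at about 180 to 200 mg/dl. For the pair-fed group (n = 7) the mothers received maltose dextrin in its place (called maltose dextrose in part of the labels). All had food and water freely until gestational day 14, and the fetuses were taken by caesarean section on day 19. The protocol counts 4 days of exposure and the titles 5. Each array carried 1 sample in Cy5 beside a common Cy3 pool of 7 animals fed freely throughout, also called weight-matched, with no dye swap. Neither the tissue nor the number of litters behind a group is given in the labels used here. The p-values thus rest on the spread among these samples, and part of that may be technical.

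Olfactory receptors are G protein-coupled receptors, the largest gene family of the mouse, and each mature olfactory sensory neuron of the nasal epithelium expresses 1 allele of 1 receptor gene. Odorant binding activates the olfactory G protein alpha subunit (Gnal) and adenylyl cyclase (Adcy3), and the cAMP formed opens a cyclic nucleotide-gated channel. Class I receptors resemble those of fish and sit in 1 cluster on chromosome 7, around the beta-globin genes, while class II receptors are spread over many clusters. A few receptors are also known from sperm, kidney, carotid body or other sites outside the nose. In bulk RNA, fewer expressing cells and less RNA per cell cannot be told apart.

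Upstream sequences of receptors whose ratios are described further on are given first, because homeodomain factors such as Lhx2 and Emx2 and the Olf/Ebf factors are known to act on receptor promoters. RefSeq windows of 300 bases, 250 before and 50 after the annotated start, were held for 108 of the 136 genes, in 109 windows (build GRCm38.p6). In 64 of these, 58.7%, the annotated start was followed at once by ATG, against 5.83% of all 32851 windows of the same length. Such gene models start at the coding sequence, so the true promoter may lie elsewhere. The homeodomain-type letters TAATTA were in 15.6% of receptor windows and 5.29% of all windows, and TAATTG in 16.5% and 8.0%, on either strand. The Olf/Ebf-type letters CCCNNGGG were in 1.83% of receptor windows and 13.7% of all. The median GC content was 37.0% in receptor windows and 52.7% in all, and its part in the motif shares was not tested. Of the receptors named and called below, 9 had a window without ATG at the start and 4 of these held a motif. They are shown with that of Olfr67, which had none. Capitals mark the motif letters, on either strand. No motif overlapped another. The windows are chr2:86445955-86446254 on the minus strand for Olfr1065, chr9:38401461-38401760 on the plus strand for Olfr147, chr7:140601090-140601389 on the plus strand for Olfr46, chr9:19916979-19917278 on the plus strand for Olfr77 and chr7:103791781-103792080 on the minus strand for Olfr67.
Olfr1065: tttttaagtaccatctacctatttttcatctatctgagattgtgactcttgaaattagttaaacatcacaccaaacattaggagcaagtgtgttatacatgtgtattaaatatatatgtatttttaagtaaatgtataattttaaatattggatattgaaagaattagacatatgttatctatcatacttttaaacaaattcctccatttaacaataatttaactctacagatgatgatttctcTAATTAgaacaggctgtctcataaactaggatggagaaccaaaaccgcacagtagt
Olfr147: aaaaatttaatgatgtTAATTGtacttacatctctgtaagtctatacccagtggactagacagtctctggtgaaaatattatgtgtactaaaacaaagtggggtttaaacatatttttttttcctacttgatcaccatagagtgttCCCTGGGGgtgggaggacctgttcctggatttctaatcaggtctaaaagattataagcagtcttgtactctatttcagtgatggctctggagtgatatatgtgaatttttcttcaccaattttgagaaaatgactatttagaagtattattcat
Olfr46: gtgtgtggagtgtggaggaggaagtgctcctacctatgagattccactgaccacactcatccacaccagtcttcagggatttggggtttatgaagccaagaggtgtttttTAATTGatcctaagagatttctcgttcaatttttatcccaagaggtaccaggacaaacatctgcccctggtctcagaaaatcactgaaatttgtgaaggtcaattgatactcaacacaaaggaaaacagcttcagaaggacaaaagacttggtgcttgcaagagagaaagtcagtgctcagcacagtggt
Olfr77: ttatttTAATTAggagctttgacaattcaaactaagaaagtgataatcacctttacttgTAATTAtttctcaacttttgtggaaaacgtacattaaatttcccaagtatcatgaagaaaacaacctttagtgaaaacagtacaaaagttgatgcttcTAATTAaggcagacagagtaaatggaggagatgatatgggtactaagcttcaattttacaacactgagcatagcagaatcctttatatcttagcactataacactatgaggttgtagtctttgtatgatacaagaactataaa
Olfr67: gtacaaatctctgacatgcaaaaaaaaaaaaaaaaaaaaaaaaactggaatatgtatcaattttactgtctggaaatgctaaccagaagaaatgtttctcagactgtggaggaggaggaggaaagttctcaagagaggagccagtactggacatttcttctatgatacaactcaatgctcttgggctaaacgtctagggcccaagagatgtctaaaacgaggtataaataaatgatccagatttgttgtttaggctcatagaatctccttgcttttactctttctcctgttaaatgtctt

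Olfr1065 held 1 TAATTA and Olfr77 held 3. Olfr46 held 1 TAATTG. Olfr147 held 1 TAATTG, and CCCNNGGG in the form CCCTGGGG. A match in letters is a description and not a binding site.

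The deposited values are log2 ratios. From the order of the channels they are likely sample over pool, but the labels do not state it. If the direction were the other way, higher and lower would exchange in every comparison. Exact values of 0 and the highest value of the table (16.61) recur as placeholders and were treated as missing: 5.5% of the values of receptor probes and 5.29% of all values, with up to 17.3% of receptor values on 1 array (pair-fed replicate 6). Array medians of the other values lay between -0.38 and 0.62 in alcohol-fed arrays and between -0.62 and 0.68 in pair-fed arrays, and each array was centred on its own. Of the receptor probes, 136 had a value on 4 or more arrays in both groups and were tested, 84 of them measured on all 14 arrays. Without spot signals, brightness and distance from background are unknown.

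On every array the receptor probes lay below the middle of the array. The median of the receptor probes was lowest at -0.93, with a middle value of -0.74 and highest at -0.43, over the 7 alcohol-fed arrays, and -1.18, -0.65 and -0.47 over the 7 pair-fed arrays. The mean of these array medians was -0.74 ± 0.17 in the alcohol-fed group and -0.72 ± 0.27 in the pair-fed group (SD, n = 7 each), where 0 is the median of all probes. The 2 groups overlapped. Between 63.0% and 74.1% of receptor values were below 0 on an alcohol-fed array, and between 61.2% and 75.2% on a pair-fed array.

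**Figure D1:**
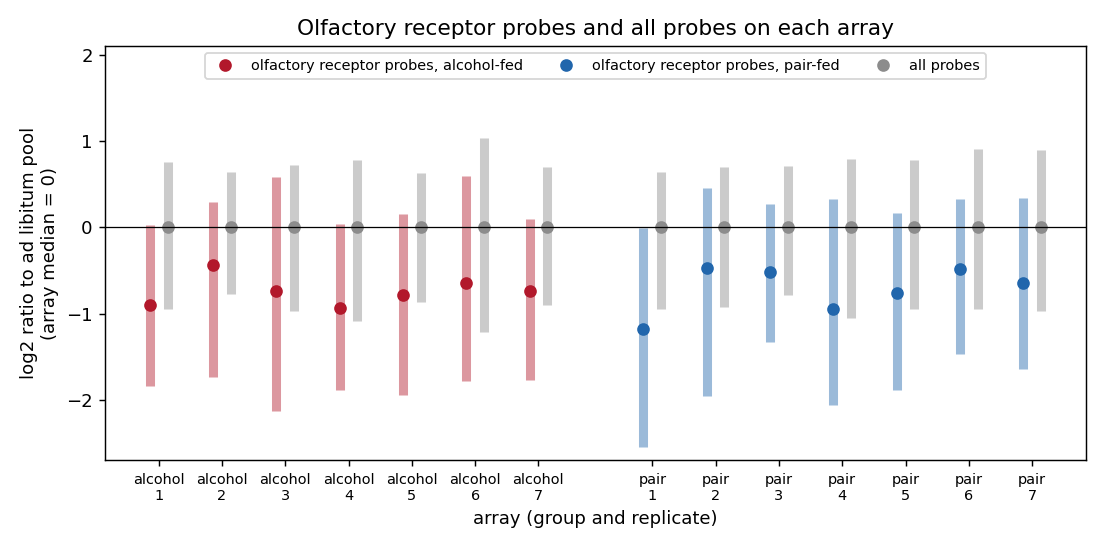
Log2 ratio to the ad libitum pool (vertical axis) of olfactory receptor probes (coloured) and of all probes (grey) on each of the 14 arrays (horizontal axis), with points for medians and bars from the lower to the upper quartile. The receptor medians lie between -1.18 and -0.43, below the centred median of all probes on each array.

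Alcohol-fed and pair-fed fetuses were compared first, since this contrast does not depend on the pool. No receptor probe passed the test: 0 of 136 were called at an adjusted p under 0.05 with limma, as were 0 of all 20876 probes (0.0%), and the smallest adjusted p of a receptor was 0.9996. At an unadjusted p under 0.05 there were 7 receptor probes, 5.15% of those tested, against a background of 4.22%. The median difference, alcohol-fed minus pair-fed, was 0.02 for receptor probes and 0.01 for all probes. The 95% interval of the difference lay within 4-fold either way for 95 receptor probes (69.9%, against 76.8% of all probes) and within 2-fold for 5 (3.68%, against 8.84%).

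The 10 probes with the smallest unadjusted p between the groups are given by name, though none was called. Olfr46, a MOR253 receptor, had values of -2.39, -1.71, -1.35, -1.20 and -0.57 on the 5 alcohol-fed arrays with a value, against -0.43, 0.12, 1.31 and 2.05 on 4 pair-fed arrays. All alcohol-fed values were below all pair-fed values. Groups without overlap, in either direction, were found for this 1 of 136 receptor probes tested and for 24 of all 20876 probes (0.115%). The difference of Olfr46 was -2.21 (SE 0.62, 95% interval -3.54 to -0.87, limma adjusted p = 0.9996), and 5 of the 14 arrays gave no value. Olfr73, known as mOR-EG, a receptor for eugenol, ran from -8.59 to -0.66 with a median of -2.45 on 7 alcohol-fed arrays, against -1.20, -1.06, -0.56, 0.59 and 0.62 on 5 pair-fed arrays. The groups overlapped, and alcohol-fed replicate 1 stood far below the rest. The difference was -2.73 (SE 1.04), and without that array it was -1.81.

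Olfr954, a MOR171 receptor, was lowest at -3.39, in the middle at -1.56 and highest at -1.22 on 6 alcohol-fed arrays, against -2.57, -0.28 and 3.48 on 6 pair-fed arrays. The groups overlapped only through pair-fed replicate 1, at -2.57, and the difference was -2.03 (SE 0.78). Olfr1355 (difference -1.33), Olfr147 (-1.55) and Olfr893 (-0.95) were also lower in alcohol-fed than in pair-fed arrays without passing the test. Olfr1383 (1.29), Olfr11 (1.19), Olfr544 (1.03) and Olfr75-ps1 (0.72) were higher there, likewise without passing it. Except for Olfr46, the values of the 10 overlapped between the groups.

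Against the ad libitum pool, many receptors gave a lower signal in the fetuses of both fed groups. In alcohol-fed arrays 46 of 136 receptor probes were lower than the pool, 33.8%, where 15.5% of all probes were called lower. In pair-fed arrays 49 were lower, 36.0%, where 13.5% of all probes were called lower. Only 4 receptor probes were higher in alcohol-fed arrays (2.94%, background 8.02%) and 4 in pair-fed arrays (2.94%, background 7.86%). The median log2 ratio over the receptor probes was -0.70 in alcohol-fed and -0.67 in pair-fed arrays, where that over all probes was 0.01 and -0.03. In alcohol-fed arrays 100 receptor probes had a mean below 0, 73.5% against 49.8% of all probes, and in pair-fed arrays 101 had, 74.3% against 51.4%. At least 4-fold lower and called were 23 probes in alcohol-fed and 19 in pair-fed arrays. No share over all probes was taken at this cut, so whether these counts are unusual was not tested.

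Both comparisons share the same pool, which counts as 1 control sample, and its own spread does not enter the test. A difference in the pool itself and one in the fetuses cannot be told apart here. Of the 84 receptor probes measured on all 14 arrays, 27 were lower in alcohol-fed arrays (32.1%, background 11.3% of such probes) and 29 in pair-fed arrays (34.5%, background 11.6%). Of the same probes 3 were higher in alcohol-fed arrays (background 11.4%) and 2 in pair-fed arrays (background 12.1%). Receptor probes varied somewhat more among arrays than other probes: the median SD within a group was 0.90 for receptors and 0.86 for all probes in alcohol-fed arrays, and 1.14 and 0.96 in pair-fed arrays.

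**Figure D2:**
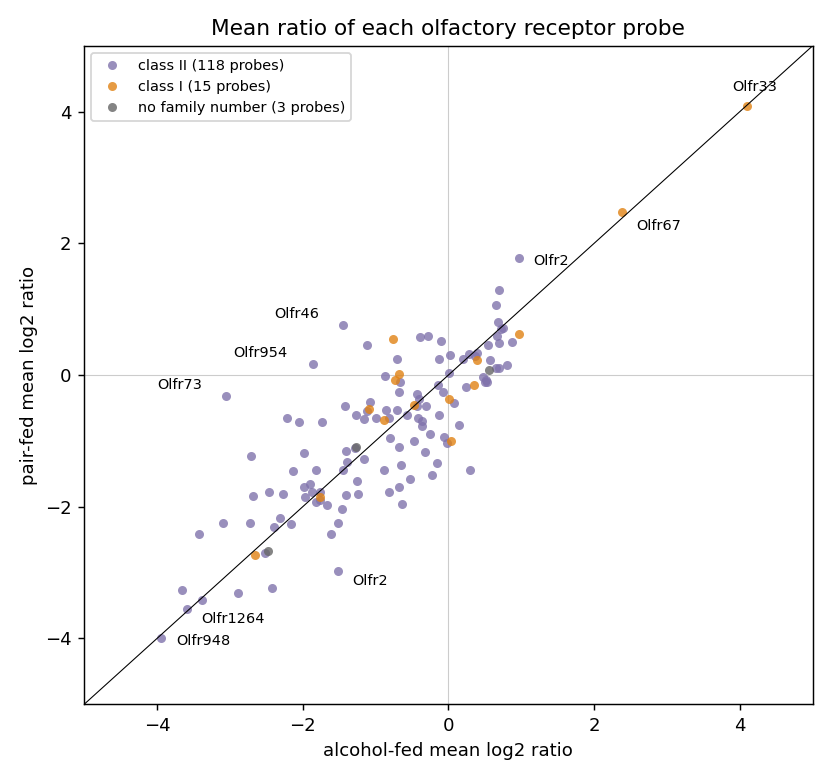
Mean log2 ratio to the pool of each of the 136 receptor probes tested, alcohol-fed on the horizontal and pair-fed on the vertical axis, coloured by receptor class, with a line where both are equal. Olfr33 and Olfr67 lie far above 0 on both axes, most class II probes lie below 0, Olfr73, Olfr46 and Olfr954 lie above the line, and 2 probes of Olfr2 lie on opposite sides of 0.

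The receptors that fell furthest below the pool included several with a long history in the field. Olfr948, a MOR171 receptor on chromosome 9, had a lowest value of -6.19, a median of -3.53 and a highest of -3.05 on 7 alcohol-fed arrays, and -6.52, -4.37 and -1.27 on 7 pair-fed arrays. All 14 values were below 0. Its mean was -3.94 (SE 0.52, limma adjusted p = 3.6e-05) in alcohol-fed and -3.99 (SE 0.52, adjusted p = 3.5e-05) in pair-fed arrays. Olfr1507 is MOR28, the receptor next to the H element, an enhancer on chromosome 14 used in studies of receptor choice. It ran from -5.52 over a median of -3.20 to -2.50 in alcohol-fed arrays and from -5.59 over -3.06 to -1.83 in pair-fed arrays. The means were -3.66 (SE 0.42, adjusted p = 6.0e-06) and -3.26 (SE 0.42, adjusted p = 2.8e-05), again with all arrays below 0.

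Olfr17 is the P2 receptor, used for tracing the axons of neurons with 1 receptor into the olfactory bulb. Its values ran from -4.34 over a median of -3.47 to -2.24 in alcohol-fed arrays and from -5.19 over -3.01 to -1.93 in pair-fed arrays. It averaged -3.38 (SE 0.39, adjusted p = 7.2e-06) in alcohol-fed and -3.41 (SE 0.39, adjusted p = 6.8e-06) in pair-fed arrays. Olfr1264, a MOR236 receptor on chromosome 2, ran from -4.33 over -3.71 to -2.67 in alcohol-fed arrays and from -4.61 over -3.69 to -1.81 in pair-fed arrays. Its means were -3.59 and -3.55 (SE 0.33 each, adjusted p = 3.9e-07 and 4.8e-07), the smallest adjusted p of any receptor in both groups. The values of these 4 receptors overlapped between the fed groups.

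Other large falls, all called, were those of Olfr1065, at -3.43 in alcohol-fed and -2.42 in pair-fed arrays, and Olfr62, at -2.89 and -3.30. Olfr44 was at -3.09 in alcohol-fed and -2.24 in pair-fed arrays, and Olfr804 at -2.72 and -2.25. Both groups' calls of Olfr44 were lost with the replicate number as a block. Olfr683, a class I receptor, was at -2.66 in alcohol-fed and -2.73 in pair-fed arrays. Olfr25 was at -2.52 and -2.71, Olfr30 at -2.47 and -2.68, and Olfr52 at -2.42 and -3.24, in the same order of groups. Each of these 8 receptors had all its alcohol-fed values below 0, and Olfr1065 alone among them had a pair-fed value above 0, at 0.30.

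Some calls stood in only one fed group, without any of these differences between groups passing the test. Olfr73 fell by 3.05 in alcohol-fed arrays (SE 0.67, limma adjusted p = 0.0046) and was at -0.32 in pair-fed arrays (SE 0.79, adjusted p = 0.799). Without alcohol-fed replicate 1 its alcohol-fed mean was -2.13 and was still called. Olfr77 had -4.46, -4.19, -2.82 and 0.62 on the 4 alcohol-fed arrays with a value, with a mean of -2.72 (adjusted p = 0.0224), and a mean of -1.23 on 5 pair-fed arrays (adjusted p = 0.212). Its alcohol-fed call was lost when placeholder values were kept. Olfr1355, Olfr147, Olfr954 and Olfr46 were called lower in alcohol-fed arrays, at -2.05, -2.21, -1.86 and -1.44, and not in pair-fed arrays, at -0.72, -0.66, 0.17 and 0.76. Olfr1383, Olfr11 and Olfr75-ps1 were called lower in pair-fed arrays, at -1.52, -1.34 and -1.37, while their alcohol-fed means of -0.23, -0.15 and -0.65 were not called. The call of Olfr46 was lost without alcohol-fed replicate 3, 4 or 6 and that of Olfr954 without alcohol-fed replicate 2 or 3. The call of Olfr11 was lost without pair-fed replicate 1, 3, 5 or 7. Over all settings that lost them, the limma adjusted p lay between 0.0536 and 0.631 for Olfr46, between 0.0569 and 0.0763 for Olfr954 and between 0.0509 and 0.0696 for Olfr11.

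Few receptors were higher than the pool, and 3 of the 4 in alcohol-fed arrays were class I. Olfr33, a class I receptor of the MOR11 family, stood apart: its lowest, median and highest values were 2.34, 4.03 and 5.95 in alcohol-fed arrays and 1.87, 4.02 and 6.45 in pair-fed arrays. No array was below 0, and the groups overlapped. Its mean was 4.09 in both groups (SE 0.46, limma adjusted p = 4.0e-06 in alcohol-fed and 4.5e-06 in pair-fed arrays), and the interval of the difference between them was -1.35 to 1.35. Olfr67, which lies 3' of the beta-globin genes, had 0.83, 2.44 and 3.59 on 6 alcohol-fed arrays and -0.87, 2.33 and 4.54 on 7 pair-fed arrays. All alcohol-fed arrays and 6 of 7 pair-fed arrays were above 0. Its means were 2.39 (SE 0.54, adjusted p = 0.0054) and 2.48 (SE 0.50, adjusted p = 0.0026).

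The other called rises were smaller. In alcohol-fed arrays they were Olfr672, a class I receptor, at 0.97 (adjusted p = 0.0261) and Olfr48 at 0.87 (adjusted p = 0.0295). Their pair-fed means of 0.62 and 0.51 were not called. In pair-fed arrays they were Olfr13 at 1.30 (adjusted p = 0.0030) and Olfr150 at 1.06 (adjusted p = 0.0197), with alcohol-fed means of 0.70 and 0.65 that were not called. In other settings the alcohol-fed means were called as well, that of Olfr13 in 4 settings (limma adjusted p from 0.0265 to 0.0456) and that of Olfr150 with quantile normalization (adjusted p = 0.0483). The call of Olfr672 was lost without alcohol-fed replicate 2, 3, 4, 6 or 7 and that of Olfr48 without alcohol-fed replicate 2, 3, 6 or 7. The call of Olfr150 was lost without pair-fed replicate 1 or 7. Over the settings that lost them, the limma adjusted p reached 0.0883 for Olfr672, 0.0767 for Olfr48 and 0.11 for Olfr150. Without alcohol-fed replicate 3, or without replicate 7, 2 receptors instead of 4 were higher in alcohol-fed arrays.

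**Figure D3:**
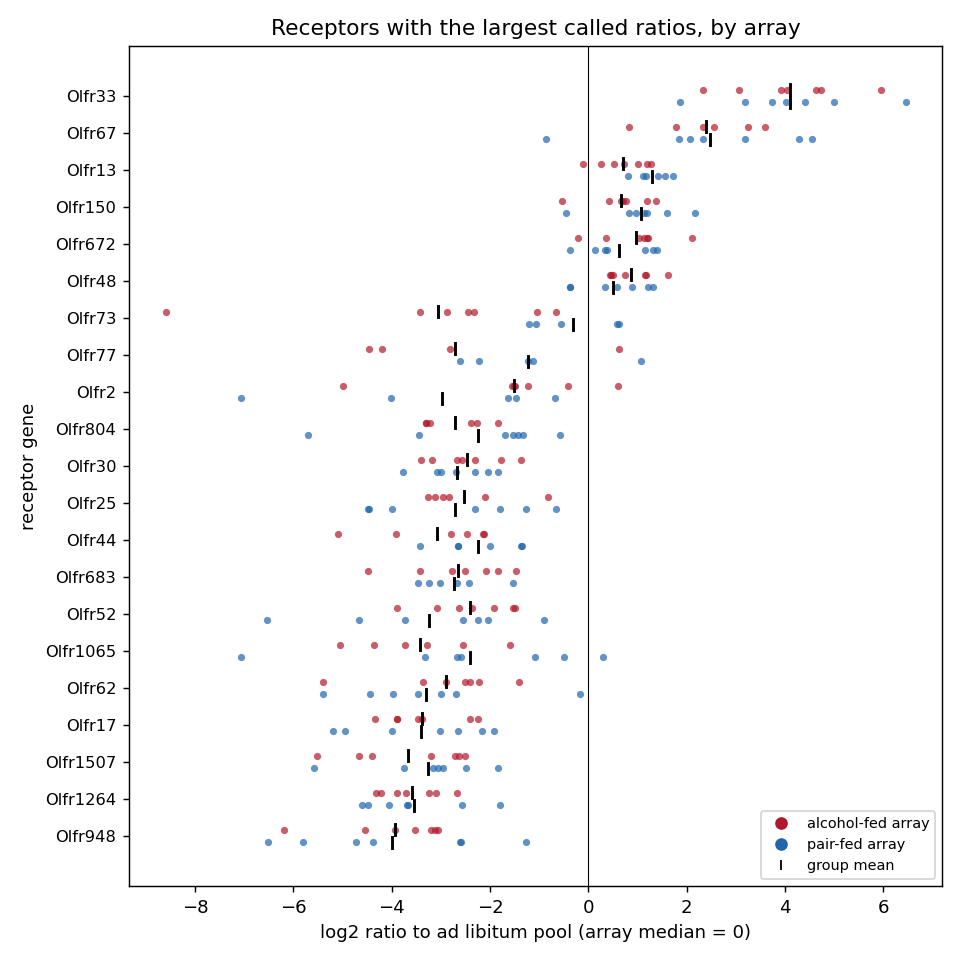
Log2 ratio to the pool on each array (points, horizontal axis, array median at 0) of the receptors with the largest called rises and falls (vertical axis), with alcohol-fed arrays above pair-fed arrays in each row and a bar at each group mean. Olfr33 and Olfr67 stand to the right, with means between 2.39 and 4.09, most of the others lie left of 0 on nearly all arrays, and 1 alcohol-fed value of Olfr73 stands at -8.59.

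Of 19 receptors listed for a known ligand, a site outside the nose or classic use, 8 were on the array. Olfr17 and Olfr73 are described above. Olfr15, of the MOR256 family, ran from -4.13 over -1.28 to -0.78 in alcohol-fed arrays and from -3.42 over -2.15 to 0.07 in pair-fed arrays. It was lower than the pool in both groups, at -1.67 (SE 0.40, limma adjusted p = 0.0071) and -1.97 (SE 0.40, adjusted p = 0.0024). Without alcohol-fed replicate 1 its alcohol-fed mean was -1.26 and was still called. Olfr16, or MOR23, a receptor for lyral also known from sperm and muscle, was not called, at 0.56 in alcohol-fed and 0.08 in pair-fed arrays. Its highest pair-fed value, 2.19 in replicate 7, stood apart, and without that array the pair-fed mean was -0.27.

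Olfr78, a receptor for short-chain fatty acids in kidney vessels and carotid body, was at -0.73 in alcohol-fed and -0.08 in pair-fed arrays. Olfr544, a receptor for azelaic acid known from fat and liver, ran from -0.65 over -0.43 to 1.78 in alcohol-fed arrays and from -2.37 over -0.79 to -0.02 in pair-fed arrays. Olfr160, known as M72 and responsive to acetophenone, was at -0.39 in alcohol-fed and 0.58 in pair-fed arrays. None of these 3 receptors was called against the pool or between the groups, except that Olfr544 was called lower in pair-fed arrays in 3 other settings (limma adjusted p from 0.0313 to 0.0436). The intervals of their differences, alcohol-fed minus pair-fed, were -1.75 to 0.44 for Olfr78, -0.07 to 2.14 for Olfr544 and -2.40 to 0.47 for Olfr160, so changes of over 2-fold were within each interval.

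Olfr2, the I7 receptor for octanal, had 3 probes that did not give the same picture. One ran from -1.81 over 0.80 to 4.50 in alcohol-fed arrays and from -1.30 over 2.09 to 4.55 in pair-fed arrays, with means of 0.97 and 1.78 that were not called. The next ran from -4.98 over -1.48 to 0.60 in alcohol-fed arrays, and gave -7.06, -4.01, -1.63, -1.48 and -0.69 on 5 pair-fed arrays. Its means were -1.51 (not called) and -2.97 (limma adjusted p = 0.0154). The gap between these 2 probes of 1 gene was 2.48 in alcohol-fed and 4.75 in pair-fed arrays. The pair-fed mean of the higher probe was called in 3 other settings (limma adjusted p from 0.0305 to 0.0482). The third had values on only 3 pair-fed arrays and was not tested. Olfr139 had 2 probes, at -1.82 and -0.42 in alcohol-fed and at -1.93 and -0.66 in pair-fed arrays, and only the lower probe was called, in both groups. Its alcohol-fed call was lost without alcohol-fed replicate 2, 3, 4 or 5 and its pair-fed call without pair-fed replicate 1 or 5 (limma adjusted p up to 0.0906 and 0.0562). The pair-fed call of Olfr2 was lost without pair-fed replicate 1 (adjusted p up to 0.0665 over the settings that lost it). Of the other untested probes, Olfr60 lay between -2.09 and 2.01 on 7 alcohol-fed arrays and Olfr642 between -3.30 and -0.63, each with 3 pair-fed values.

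By class, the falls were mostly among class II receptors. Of 118 class II probes tested, 43 (36.4%) were lower and 1 was higher than the pool in alcohol-fed arrays, with a median of -0.75, and 46 (39.0%) were lower and 2 higher in pair-fed arrays, with a median of -0.71. Of 15 class I probes, 2 (13.3%, Olfr683 and Olfr69) were lower and 3 higher in alcohol-fed arrays, with a median of -0.47. In pair-fed arrays 2 (13.3%) were lower and 2 higher, with a median of -0.16. Over all probes 15.5% were lower in alcohol-fed and 13.5% in pair-fed arrays, so the class I share was near the background. The difference between the classes was not tested.

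Families with 3 or more probes varied within themselves as well as among each other. For comparison, 33.8% of all receptor probes tested were lower in alcohol-fed and 36.0% in pair-fed arrays, and 15.5% and 13.5% of all probes. Whether any family differs from these shares was not tested. MOR171, the largest with 19 probes, had 9 lower (47.4%) and 0 higher in alcohol-fed arrays and 8 lower (42.1%) and 1 higher in pair-fed arrays. Its pair-fed means ran from Olfr948, the lowest, to Olfr150, the highest, which was called higher. In MOR256, 2 of 6 were lower in alcohol-fed and 5 of 6 in pair-fed arrays, with medians of -0.51 and -1.43. In MOR139, all 3 probes were lower in alcohol-fed arrays and 2 in pair-fed arrays, with medians of -1.77 in each. In MOR262, 2 of 7 were lower in each group, with medians of 0.01 and -0.11. MOR224 had 0 of 6 lower in alcohol-fed and 2 of 6 in pair-fed arrays. MOR1 had none of 3 called in either group.

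**Figure D4:**
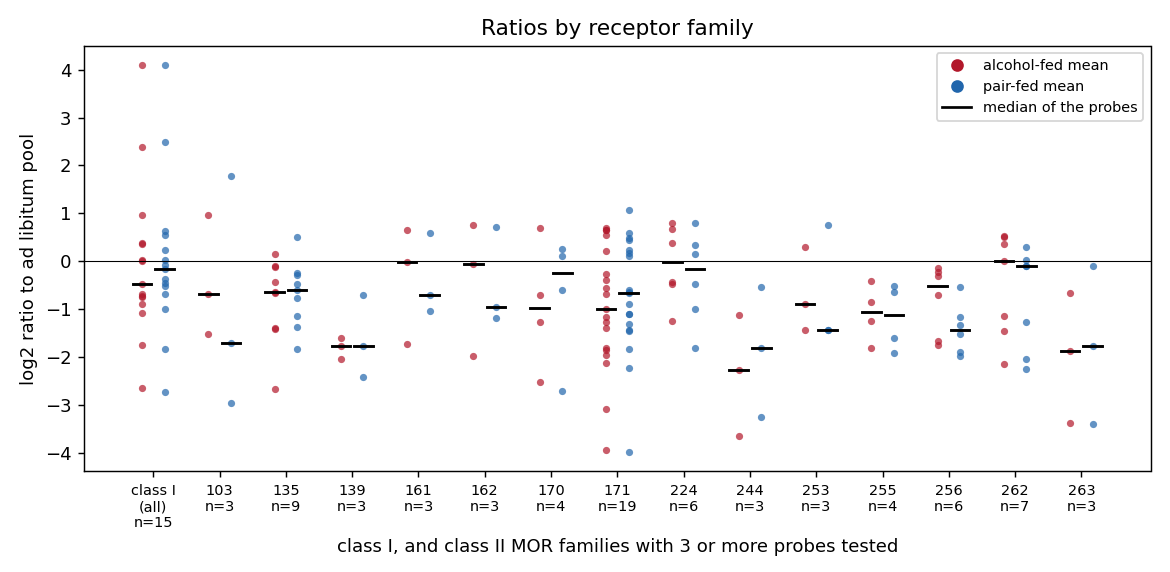
Mean log2 ratio to the pool (vertical axis) of each probe of class I and of class II families with 3 or more probes tested (horizontal axis, MOR family number), alcohol-fed left of pair-fed, with a bar at the median. Class I holds both the highest means, at 4.09, and means down to -2.73. All means of MOR139, MOR244, MOR255, MOR256 and MOR263 are below 0.

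Receptors next to each other on a chromosome often differed in their ratios. At the MOR28 cluster, Olfr1507 was at -3.66 in alcohol-fed and -3.26 in pair-fed arrays. Its neighbour Olfr1508 (MOR10) was at -1.12 and -0.55 and was not called. Olfr1509 (MOR83) was at -2.27 and -1.81 and was called in both. Around the beta-globin genes, Olfr67 was higher and Olfr69 lower than the pool in both groups. Olfr69 was at -1.76 in alcohol-fed and -1.85 in pair-fed arrays. Olfr64, Olfr65, Olfr66 and Olfr68 there were not called. Of the 5 OR37 receptors, which are known for neurons clustered in the centre of a turbinate, the pseudogene Olfr29-ps1 was lower, at -2.16 and -2.26, and Olfr155, Olfr156, Olfr157 and Olfr159 were not called.

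Over the 28 pairs of neighbours measured, the median absolute difference of mean ratios was 1.33 in alcohol-fed and 1.30 in pair-fed arrays. For the 297 pairs of 1 MOR family it was 1.20 and 1.08, and for all 8911 pairs of receptors 1.16 and 1.09. The tested probes of 1 gene lay 1.41 and 1.27 apart for Olfr139, and 2.48 and 4.75 apart for Olfr2. How much of the neighbours' differences comes from the probes was not tested. By chromosome, 16 of 41 receptor probes on chromosome 9 (39.0%) were lower in alcohol-fed and 13 (31.7%) in pair-fed arrays, beside 15.5% and 13.5% of all probes. On chromosome 11, 8 of 22 (36.4%) were lower in alcohol-fed and 10 (45.5%) in pair-fed arrays. Of 27 on chromosome 7, 5 (18.5%) were lower and 3 higher in alcohol-fed arrays, and 6 (22.2%) lower and 2 higher in pair-fed arrays, which is nearer to the share over all probes.

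Other genes of the olfactory system, and other chemosensory receptors including those of taste, were set beside the olfactory receptors. None of them was called between the fed groups. Of 13 probes for 12 genes of odorant transduction, 5 (38.5%) were lower and 0 higher than the pool in alcohol-fed arrays, and 5 lower and 1 higher in pair-fed arrays, with medians of -0.70 and -0.82. Pde4a and Pde1c, which break down cAMP, were at -3.87 and -2.43 in alcohol-fed and at -4.56 and -2.73 in pair-fed arrays. Gnb1, a G protein beta subunit, was at -2.69 and -2.98, and Car2, a carbonic anhydrase of CO2-sensing neurons, at -2.40 and -2.25. Both are among several genes of these lists that are active in many other tissues. Adcy3, the olfactory cyclase, was lower in alcohol-fed arrays at -2.05 and not called in pair-fed arrays at -1.05. Apart from Omp and Gnal, the rest of this list was not called in either group. In alcohol-fed and pair-fed arrays, Cnga2 was at 0.43 and 0.10, Gng13 at 0.01 and -0.08, and Slc12a2 at 0.33 and -0.19. Pde2a was at 0.88 and 0.79, and Cnga3 at -0.70 and -0.82.

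Omp, the defining marker of mature olfactory neurons, and Gnal were picked out after their values were seen. Omp had -1.55, -1.17 and 1.04 as lowest, median and highest in alcohol-fed arrays and -3.38, -0.83 and 0.02 in pair-fed arrays. Its mean of -0.88 was not called in alcohol-fed arrays (limma adjusted p = 0.0943) and that of -1.13 was in pair-fed arrays (adjusted p = 0.0396). The groups overlapped. Of 2 Gnal probes, 1 was higher in pair-fed arrays at 1.16 and not called in alcohol-fed arrays at 0.67. The other was at 0.40 in alcohol-fed and 0.46 in pair-fed arrays and not called. Ratios give no level, so they do not show whether olfactory neurons were in the samples.

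Among 27 probes of 23 genes of olfactory neuron development and axon sorting, 5 were lower and 1 higher in alcohol-fed arrays and 3 lower and 1 higher in pair-fed arrays, with medians of 0.16 and -0.24. The shares of lower probes, 18.5% and 11.1%, were near those over all probes (15.5% and 13.5%), so the list is not set apart and its called members are given as single genes. Ncam2, an adhesion molecule of olfactory axons, was at -2.34 and -1.76, lower in both groups. Of 3 Ncam1 probes, 1 was lower at -3.19 in alcohol-fed and -3.70 in pair-fed arrays, and the other two were not called. Ebf1, an Olf/Ebf factor, and Nrp1, an axon guidance receptor, were lower in alcohol-fed arrays at -2.68 and -1.86. Of 2 Kirrel3 probes, 1 was lower there at -3.24, from 4 arrays with 1 value at -8.08, and the other, measured on all 7, was at 0.64 and not called. Lhx2, a homeodomain factor needed for class II receptor expression, was lower in pair-fed arrays at -1.20 and not called in alcohol-fed arrays at -0.36. Atf5, a factor of the response that stabilises receptor choice, was higher in pair-fed arrays at 2.67. Of 2 Plxna1 probes, 1 was higher in alcohol-fed arrays at 1.39, and the other was at -0.04 in alcohol-fed and -0.65 in pair-fed arrays and not called. Kirrel3 and Plxna1 were named after their values were seen.

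Of 14 probes for supporting cells and odorant carriers, 1 was lower and 1 higher in each group, or 7.14% each way. Over all probes 15.5% and 13.5% were lower and 8.02% and 7.86% higher, so these shares were not above the background. Lcn3, a carrier of the lipocalin family, was higher at 0.92 in alcohol-fed and 0.93 in pair-fed arrays. Cyp2a5 was lower in alcohol-fed arrays at -2.22 and Obp1b, an odorant binding protein, in pair-fed arrays at -2.62. Of 55 probes for other chemosensory receptors, 13 were lower and 3 higher in alcohol-fed arrays and 12 lower and 2 higher in pair-fed arrays, with medians of -0.58 and -0.39. Tas1r3, a subunit of the sweet and umami taste receptors, was at -4.50 in alcohol-fed and -2.77 in pair-fed arrays. The vomeronasal receptors Vmn2r10 and Vmn1r53 were at -2.44 and -2.15 in alcohol-fed and at -2.41 and -2.02 in pair-fed arrays, all called. A probe of Vmn2r122 was lower in both groups, at -2.94 and -2.04, and another in pair-fed arrays only, at -2.07. The called rises were Vmn1r30, at 1.08 in alcohol-fed and 1.16 in pair-fed arrays, Vmn1r40 and Tas2r140, at 0.84 and 0.88 in alcohol-fed arrays, and Vmn1r11, at 1.27 in pair-fed arrays. Vmn1r30, Tas2r140 and Vmn1r11 were named after their values were seen. The shares of lower probes in this list were 23.6% in alcohol-fed and 21.8% in pair-fed arrays, beside 33.8% and 36.0% for olfactory receptors and 15.5% and 13.5% for all probes. These differences in share were not tested.

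**Figure D5:**
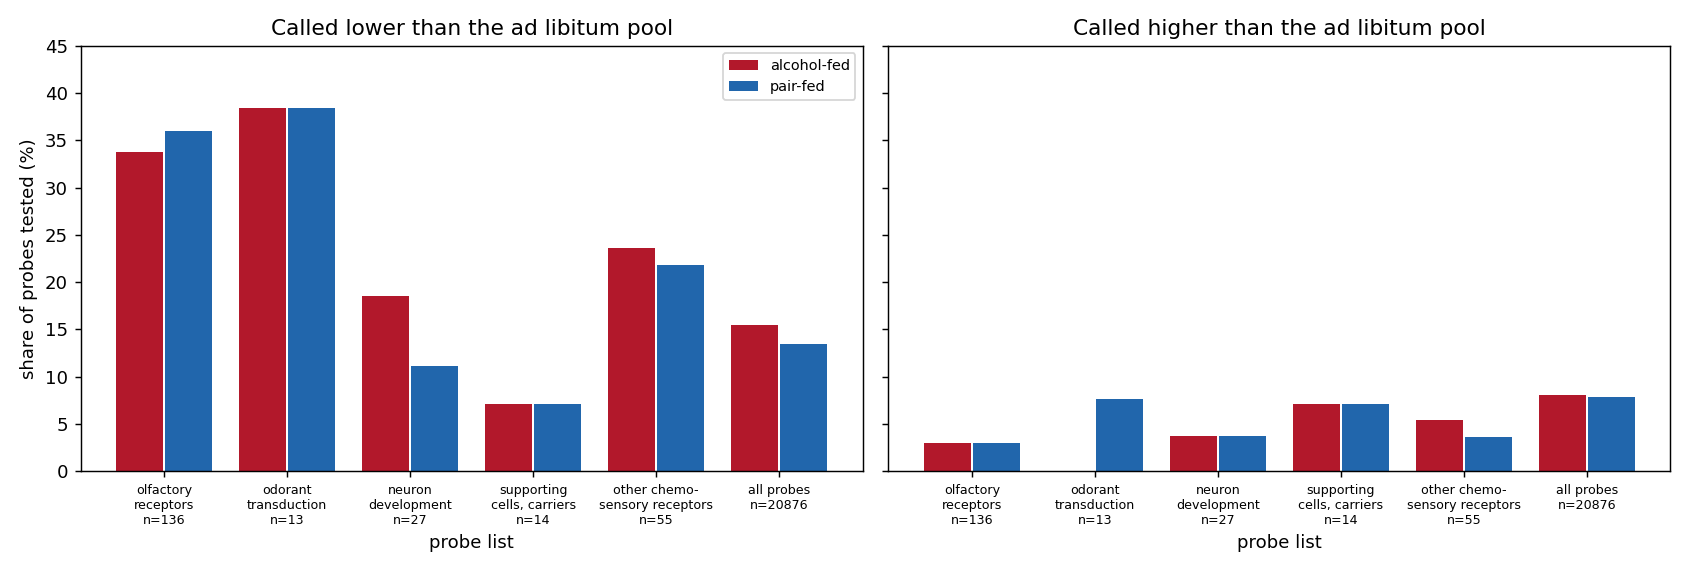
Share of tested probes called lower (left) and higher (right) than the pool (vertical axis, percent) for olfactory receptors, 4 other gene lists and all probes (horizontal axis), alcohol-fed left of pair-fed. Olfactory receptors (33.8% and 36.0%), odorant transduction genes (38.5% in each group) and other chemosensory receptors (23.6% and 21.8%) have higher shares of lower probes than all probes (15.5% and 13.5%).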

How the data were processed

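Per the labels' protocols, RNA came from a miRNA isolation kit of Ambion and was labelled with Genisphere's 3DNA method after reverse transcription. The deposited table holds 1 log2 ratio per probe and array. That unit was read from the values and the channels, since neither scale, centring nor direction is stated. How arrays were scanned, corrected and normalized is not given in the sources consulted. Placeholder values were set to missing, each array was centred on its median, and the 20876 probes with a value on 4 or more arrays in both groups were tested, which left out 706. R 4.3.3 with limma 3.58.1 did the test (functions lmFit and eBayes on the 14 arrays together, two-sided, Benjamini-Hochberg over all probes tested, threshold 0.05). Alcohol-fed minus pair-fed was one contrast, and the mean of each group against 0 gave the others. Errors are limma standard errors unless SD is written, from 1 variance per probe for both groups, so an array of one group can change a call in the other. The number of arrays limits the precision. No pair of arrays shared over 0.29% identical values (placeholders aside), so none was a copy of another. Each counted as 1 replicate, though arrays of related or shared RNA would pass this check too. Correlations between arrays ran from 0.257 to 0.692 over all probes (median 0.451). Over receptor probes they ran from 0.212 to 0.829 (median 0.476).

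The fit was checked on simulated data. Symbols came from the platform annotation, in which 16635 probes have 1 symbol, 113 several and 4834 none.

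The receptors and the 4 other gene lists (odorant transduction, neuron development, supporting cells and carriers, other chemosensory receptors) were chosen with earlier results of these data known. Named receptors are the 10 with the smallest p between the fed groups, the 10 largest called rises and falls in each group against the pool, the 19 listed known receptors, and genes with several probes. From each other list the rule takes up to 4 genes with the smallest p per comparison against the pool and up to 2 between the groups. Class, family, neighbour and chromosome counts are descriptions. Planned comparison of protein sequences was not made, since no protein table was used here. Other settings tried were no centring, quantile normalization, placeholders kept, 2 other filters on missing values, array weights, the replicate number as a block and each array left out.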

Additional observations from a re-analysis of the deposited data

Results flagged for a closer look

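Among 76 groups of values of named receptors checked for a single array far from the rest, 4 held one, where chance gives about 5%. Olfr73 in alcohol-fed replicate 1 was at -8.59, and the other 6 alcohol-fed arrays lay between -3.43 and -0.66. Olfr15 in the same array was at -4.13, and the others lay between -2.02 and -0.78. The probe of Olfr2 that was lower in pair-fed arrays was at -4.98 in alcohol-fed replicate 6, and the others lay between -1.55 and 0.60. Without that array its alcohol-fed mean was -0.94, not called, as with it. Olfr16 was at 2.19 in pair-fed replicate 7, and the other pair-fed arrays lay between -0.90 and 0.28. No cause was tested for any of them.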

How the results depend on the processing

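Over the settings tried, 0 receptor probes were called between the fed groups, and no result reversed. With quantile normalization 8 receptors instead of 4 were higher than the pool in alcohol-fed arrays. Among probes measured on all 14 arrays, 27 were lower in alcohol-fed arrays, and 29 were lower and 2 higher in pair-fed arrays, since only 84 receptor probes were tested. The mean of the alcohol-fed array medians was then -0.50, but 0 is not the middle of such probes. Their median log2 ratio in alcohol-fed arrays was 0.225 over all probes and -0.519 over receptor probes. Leaving out 1 array gave 2 to 5 higher and 41 to 49 lower in alcohol-fed arrays, 3 to 5 higher and 39 to 50 lower in pair-fed arrays, 0 between the groups, and means of array medians from -0.79 to -0.71 and from -0.76 to -0.64. Without centring, which had removed means of 0.12 and 0.11 over the array medians of the alcohol-fed and pair-fed groups, 40 and 42 receptors were lower. Leaving out the 3 arrays with most placeholders (pair-fed replicates 6 and 7, alcohol-fed replicate 6), chosen after seeing the data, gave 46 and 45 lower and 4 and 3 higher. With the replicate number as a block, 47 were lower in each group, 3 higher in alcohol-fed and 5 in pair-fed arrays, and 0 called between the groups. Arrays with the same number correlated between -0.08 and 0.18 and matched their own number best in 2 of 7 cases. The labels do not say what the number stands for. These correlations cannot show whether samples with the same number shared anything else.

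The cause of these changes was otherwise not tested. Single calls lost in at least 1 setting were those of Olfr11, Olfr139 (both groups), Olfr150, Olfr2, Olfr44 (both groups), Olfr46, Olfr48, Olfr672, Olfr77 and Olfr954. Calls gained in at least 1 setting were those of Olfr13 and Olfr150 in alcohol-fed arrays and of Olfr544 and 1 probe of Olfr2 in pair-fed arrays. The call of Olfr46 in alcohol-fed arrays was lost in 7 settings, with adjusted p up to 0.631. Depth and signal over background are unknown, so faint probes could not be set apart. The pool's own spread, dye effects and the direction of the ratios cannot be told apart from differences against the pool.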
